A study of Mus musculus with 8 samples.

Results

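TUBO, a mouse breast cancer cell line, was compared with cancer cells isolated from an early mammary tumour lesion whose sample titles name neuT. Each group had 2 libraries labelled as biological replicates, so 4 of the 8 RNA-seq libraries of the series entered the comparison, and all 23478 gene rows of the deposited count table were its members. After a filter on low counts 17069 of these genes were tested. The other 4 libraries hold disseminated cancer cells of the bone marrow, with interferon-gamma added to some; they helped to estimate the spread between replicates and are not described. All 4 libraries compared carry the genotype label WT, the tissue label breast cancer and the treatment label control. The sources used here do not give the strain, age, sex or number of animals behind the early lesion cells, their time in culture, or the promoter of the neuT transgene. TUBO is 1 line, so its replicates say nothing of variation between lines or tumours. Nothing more is known of the replicates, and p-values measure only the spread between these samples.

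As background, neuT is an activated form of rat Erbb2 (HER2/neu), a receptor tyrosine kinase that signals through the RAS-MAP kinase and PI3 kinase routes and drives mammary carcinomas of luminal type when expressed in mouse mammary epithelium. TUBO was established from a mammary carcinoma of a neuT transgenic mouse and is used as a transplantable HER2-positive tumour. Lesions and lines of this kind share the oncogene and differ in their surroundings, their time in culture and the selection they passed through.

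The libraries held 29318066 and 27122242 counts on genes in TUBO, against 30168475 and 19812619 in early lesion. Early lesion replicate 2 stood apart from the other 3 libraries. It had 44.1% of its counted reads outside annotated genes, against 18.3% to 27.4% in the other 3, and it had at least 1 count on 21278 genes, against 13112 to 14658. Of 1460 olfactory and vomeronasal receptor genes, which mammary cells do not use, 63.6% had a count in early lesion replicate 2, against 1.03% to 1.3% in the other 3 libraries. Counts of called genes are therefore given with and without this library; the part that its reads outside genes play in single low levels was not tested.

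Of the 17069 genes tested, 1943 (11.4%) were higher and 2174 (12.7%) were lower in TUBO than in early lesion at an adjusted p under 0.05 (edgeR quasi-likelihood test, Benjamini-Hochberg adjustment over all genes tested). At least 2-fold differences were seen for 1083 of the higher and 1476 of the lower genes. The counts called in each gene list below are to be read against these shares of 11.4% higher and 12.7% lower. Fold changes are given on the log2 scale as TUBO over early lesion with the standard error, and levels as CPM, the counts of a gene scaled to the adjusted size of its library. The median log2 fold change over all genes tested was -0.27. The bounded median, with genes that lack a count in a group set at the fold that a floor of 3 counts per library allows, was 0.00. The median was -0.01 over the 10351 genes of at least 5 CPM in both libraries of a group. Without early lesion replicate 2, 1036 genes (5.93% of 17456) were called higher and 1440 (8.25%) lower, among them 1003 and 1432 of the genes called with it. The higher count was 1218, 1113 and 1143, and the lower count 1900, 1278 and 1847, without TUBO replicate 1, TUBO replicate 2 and early lesion replicate 1 in turn. In every one of these 4 fits 850 of the higher and 1068 of the lower genes were called in the same direction.

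**Figure D1:**
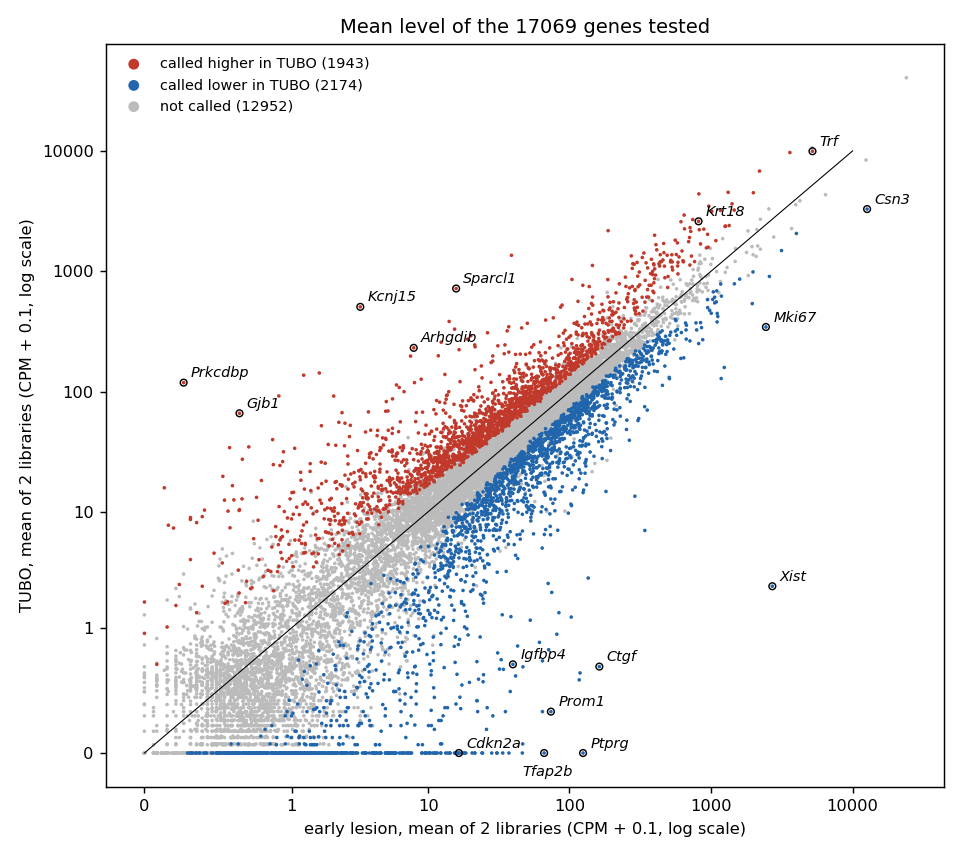
Mean level of every gene tested in TUBO (vertical axis) and early lesion (horizontal axis), in CPM + 0.1 on log scales, with the line of equal levels and 16 genes named in the text. The 1943 genes called higher in TUBO lie above the line and the 2174 called lower lie below it; Ptprg, Tfap2b and Cdkn2a lie on the lower edge, at 0 CPM in TUBO.

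Both groups carried genes of simple, luminal-type epithelium. Epcam, an epithelial surface protein, had 1034 and 1089 CPM in TUBO, against 836 and 794 CPM in early lesion (log2 fold change 0.38 ± 0.21, adjusted p = 0.226). Cdh1, which encodes E-cadherin, had 556 and 548 CPM in TUBO, against 521 and 485 CPM in early lesion (log2 fold change 0.13 ± 0.17, adjusted p = 0.578). Neither passed the test with all 8 libraries fitted, though Epcam passed in the fit of the 4 libraries alone (adjusted p = 0.0344) and with DESeq2 (adjusted p = 0.00962). The basal keratins Krt5 and Krt14 were at or under 0.207 CPM in all 4 libraries. Vim, an intermediate filament gene of mesenchymal and cultured cells, had 120.0 and 113 CPM in TUBO, against 92.8 and 91.5 CPM in early lesion (log2 fold change 0.34 ± 0.23, adjusted p = 0.3); it passed in the fit of the 4 libraries alone (adjusted p = 0.0443). In a list of 30 epithelial genes, 3 were called higher and 1 lower in TUBO, with a median of 0.25. Elf3, an epithelial ETS factor, rose: it had 34.4 and 34.4 CPM in TUBO, against 4.80 and 7.76 CPM in early lesion (log2 fold change 2.46 ± 0.42, adjusted p = 0.00258). Ehf, another ETS factor of epithelia, fell to 284 and 293 CPM in TUBO, against 513 and 443 CPM in early lesion (log2 fold change -0.73 ± 0.15, adjusted p = 0.0067), a call that was lost without early lesion replicate 1 (adjusted p = 0.0625). The other called members, Esrp2 and Cldn3 (adjusted p = 0.045 and 0.0333), lost their calls without TUBO replicate 1 (adjusted p = 0.108), without TUBO replicate 2 (adjusted p = 0.231), without early lesion replicate 1 (adjusted p = 0.134) and without early lesion replicate 2 (adjusted p = 0.156); for Esrp2 the adjusted p in these fits was at least 0.153.

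Defining markers of fibroblasts, endothelium and leukocytes were at or near 0 in both groups, while a few genes carried the summed level of most marker lists. Summed over 16 fibroblast genes the level was 21.1 and 18.8 CPM in TUBO, against 19.8 and 23.8 CPM in early lesion, and Col1a1, the main collagen of fibroblasts, had 5.42 and 2.14 CPM in TUBO, against 5.12 and 4.996 CPM in early lesion. Ptprc, the pan-leukocyte gene for CD45, had 0.0345 and 0 CPM in TUBO, against 0 and 1.204 CPM in early lesion, and T cell and B cell lists summed to at most 7.54 CPM in any library. The endothelial gene Pecam1 had 0.345 and 0.458 CPM in TUBO, against 0.0636 and 0.981 CPM in early lesion. Over the 18 endothelial markers the sum was 106 and 101 CPM in TUBO, against 15.7 and 25.8 CPM in early lesion, most of it from Flt1 and Plvap. Flt1, a VEGF receptor, had 71.9 and 63.3 CPM in TUBO, against 9.19 and 9.01 CPM in early lesion (log2 fold change 2.89 ± 0.31, adjusted p = 0.000116). Plvap, a protein of vessel fenestrae, had 31.9 and 36 CPM in TUBO, against 3.91 and 5.26 CPM in early lesion (log2 fold change 2.89 ± 0.71, adjusted p = 0.0227) and lost its call without TUBO replicate 1 (adjusted p = 0.0904), without TUBO replicate 2 (adjusted p = 0.121), without early lesion replicate 1 (adjusted p = 0.118) and without early lesion replicate 2 (adjusted p = 0.087). In contrast, 13 of the 18 were under 1 CPM in all 4 libraries. The 12 pan-leukocyte genes summed to 688 and 626 CPM in TUBO, against 922 and 839 CPM in early lesion, and 3 of them held nearly all of it. Arhgdib, a GDP-dissociation inhibitor of small GTPases, had 219 and 244 CPM in TUBO, against 8.55 and 7.18 CPM in early lesion (log2 fold change 4.87 ± 0.21, adjusted p = 1.19e-06). Cytip, a cytohesin-binding protein, had 84.3 and 84.6 CPM in TUBO, against 10.2 and 12.7 CPM in early lesion (log2 fold change 2.88 ± 0.39, adjusted p = 0.000997). Lcp1, an actin-bundling plastin also known from carcinoma cells, went the other way, with 384 and 298 CPM in TUBO, against 902 and 813 CPM in early lesion (log2 fold change -1.33 ± 0.17, adjusted p = 0.000338). Myoepithelial markers had 1 called higher and 5 called lower of 15 tested, or 1 and 2 without early lesion replicate 2, with a sum of 143 and 155 CPM in TUBO, against 103 and 104 CPM in early lesion, most of it from Jag1 and Nrtn. The lower count was 2, 1 and 4 without TUBO replicate 1, TUBO replicate 2 and early lesion replicate 1. Macrophage markers had 3 called lower of 22 tested, near the share over all genes, with 0 without either TUBO library, 7 without early lesion replicate 1 and 1 without early lesion replicate 2. Their sum was 82.2 and 115 CPM in TUBO, against 107 and 118 CPM in early lesion, most of it from Cd14. No member was called among the markers of pericytes and smooth muscle, adipocytes, neutrophils and mast cells, or Schwann cells and neurons. The pericyte list summed to 137 and 128 CPM in TUBO, against 102 and 111 CPM in early lesion, mostly from Notch3. The adipocyte list summed to 87.6 and 80.3 CPM in TUBO, against 81.9 and 73.8 CPM in early lesion, mostly from Pnpla2, while the adipocyte hormone gene Adipoq was at or under 0.401 CPM. The neutrophil and mast cell list summed to 110 and 114 CPM in TUBO, against 188 and 193 CPM in early lesion, mostly from Kit. Of the Schwann cell and neuron list, Sox10, a transcription factor gene, held most of the sum, with 1164 and 1234 CPM in TUBO, against 857 and 823 CPM in early lesion (adjusted p = 0.197); it passed in the fit of the 4 libraries alone (adjusted p = 0.00865) and with DESeq2 (adjusted p = 0.00021). The part of these cell types in the results was not tested. In bulk RNA, fewer cells of a type and less RNA per cell cannot be told apart.

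The genes of proliferation were lower in TUBO. Of 31 G1/S and replication genes 27 fell and none rose, against 12.7% lower over all genes tested. Of 30 mitotic genes 28 fell and none rose. Their median log2 fold changes were -1.71 and -1.96, against -0.27 over all genes. Without early lesion replicate 2 the counts were 26 and 25, and without any other 1 of the 4 libraries they ran from 23 to 25 and from 24 to 25. Summed over the mitotic list, the level was 1557 and 1313 CPM in TUBO, against 7195 and 6088 CPM in early lesion. Mki67, the proliferation marker Ki-67, had 389 and 300.2 CPM in TUBO, against 2750 and 2135 CPM in early lesion (log2 fold change -2.83 ± 0.36, adjusted p = 0.000816). The cyclin gene Ccna2, which acts in S phase and at entry to mitosis, had 58.5 and 61.2 CPM in TUBO, against 321 and 297 CPM in early lesion (log2 fold change -2.37 ± 0.22, adjusted p = 4.33e-05). The spindle checkpoint kinase gene Bub1 had 13.2 and 12.3 CPM in TUBO, against 80.7 and 66.99 CPM in early lesion (log2 fold change -2.53 ± 0.20, adjusted p = 1.83e-05). In each of these genes both TUBO libraries lay well below both early lesion libraries, and the replicates of a group lay close together. The groups did not overlap in any of the 2174 genes called lower, so this adds nothing to the calls. Ccne1, the cyclin that starts S phase with CDK2, had 2.97 and 2.10 CPM in TUBO, against 27.2 and 24.5 CPM in early lesion (log2 fold change -3.35 ± 0.49, adjusted p = 0.000831). Rrm1, a subunit of ribonucleotide reductase, which makes deoxynucleotides, had 44.4 and 34.6 CPM in TUBO, against 277 and 253 CPM in early lesion (log2 fold change -2.75 ± 0.17, adjusted p = 3.76e-06). The thymidine kinase gene Tk1 had 10 and 9.92 CPM in TUBO, against 62.1 and 64.1 CPM in early lesion (log2 fold change -2.66 ± 0.25, adjusted p = 5.80e-05). Ccne2 (log2 fold change -2.90 ± 0.53) and Pola1 (-1.09 ± 0.16) mark the range of the other G1/S members called lower with and without each of the 4 libraries. Plk1 (log2 fold change -2.47 ± 0.27) and Nek2 (-1.12 ± 0.21) mark the range of the other mitotic members called lower with and without each of the 4 libraries. Cdt1, a replication licensing factor, was the G1/S member with a log2 fold change above 0 and did not pass the test (0.33 ± 0.21, adjusted p = 0.26); it was chosen after its values were seen.

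Upstream of these genes, Ccnd1, the cyclin D1 gene that acts downstream of ERBB2 signalling, had 1491 and 1381 CPM in TUBO, against 1862 and 1700 CPM in early lesion, and Myc had 275 and 311 CPM in TUBO, against 228 and 209 CPM in early lesion; neither passed the test (log2 fold change -0.31 ± 0.19, adjusted p = 0.269 for Ccnd1 and log2 fold change 0.42 ± 0.16, adjusted p = 0.0857 for Myc), though Myc passed in the fit of the 4 libraries alone (adjusted p = 0.0201) and with DESeq2 (adjusted p = 0.0142).

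Promoters of these genes carry short elements long known from cell cycle genes. The CHR element TTTGAA was found, on either strand, in the RefSeq promoters (GRCm38.p6, 250 bases before to 50 after a start site) of 15 of 22 G2/M genes that fell and had a promoter entry (68.2%), against 20.2% of all 27025 genes with one. CCAAT, the box bound by NF-Y, was found in 18 of 22 (81.8%), against 41.1%. The E2F-like element TTTNNCGC was found in 9 of 23 G1/S genes that fell (39.1%), against 5.93%. Both G2/M members that did not pass the test and had an entry also held TTTGAA and CCAAT. Both such G1/S members also held TTTNNCGC. Shown here, to let the elements be seen in place, are 80 bases of 2 promoters from each list, with TTTGAA in capitals in Mki67 and Cdk1 and TTTNNCGC in capitals in Mcm5 and Mcm6, on either strand; where matches on both strands overlap, the capitals run together.
Mki67 chr7:135716453-135716532 minus strand: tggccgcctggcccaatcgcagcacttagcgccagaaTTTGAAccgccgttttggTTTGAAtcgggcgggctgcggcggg
Cdk1 chr10:69352941-69353020 minus strand: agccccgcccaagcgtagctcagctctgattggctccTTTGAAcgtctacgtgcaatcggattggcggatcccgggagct
Mcm5 chr8:75109320-75109399 plus strand: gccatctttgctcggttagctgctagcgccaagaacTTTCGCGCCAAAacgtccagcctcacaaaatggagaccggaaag
Mcm6 chr1:128359772-128359851 minus strand: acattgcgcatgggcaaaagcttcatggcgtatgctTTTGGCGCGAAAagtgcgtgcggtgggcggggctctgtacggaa

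Inhibitors of the cell cycle moved in both directions. Cdkn2a, which encodes the CDK4/6 inhibitor p16 and the p53 activator ARF, and its neighbour Cdkn2b, which encodes p15, had no count in either TUBO library. Cdkn2a had 0 CPM in both TUBO libraries, against 16.9 and 16.1 CPM in early lesion, and was at least 140.3-fold lower in TUBO (adjusted p = 3.41e-06). Cdkn2b had 0 CPM in both TUBO libraries, against 15.95 and 12.5 CPM in early lesion, and was at least 109.5-fold lower in TUBO (adjusted p = 4.13e-05). Cdkn2a lies on chromosome 4 at 89274471 to 89294653 and Cdkn2b at 89306299 to 89311039 (GRCm38, GENCODE M21). Some neighbours had reads in TUBO and others had none. Mtap, which encodes an enzyme of methionine salvage and lies at 89137122 to 89181081, had 25.6 and 23.04 CPM in TUBO, against 34.96 and 33.2 CPM in early lesion (log2 fold change -0.49 ± 0.16, adjusted p = 0.0526); it passed with RLE factors (adjusted p = 0.0365), upper quartile factors (adjusted p = 0.0279), a minimum of 50 counts (adjusted p = 0.0326), a floor of 5 CPM (adjusted p = 0.0169), the fit of the 4 libraries alone (adjusted p = 0.0178) and DESeq2 (adjusted p = 0.0128). Klhl9, a ubiquitin ligase adaptor farther out on the same side, had 54.9 and 45.5 CPM in TUBO, against 84.4 and 74.4 CPM in early lesion (log2 fold change -0.66 ± 0.21, adjusted p = 0.0429). Beyond Klhl9, Ptplad2 at 88396144 to 88438928 had 0 CPM in both TUBO libraries, against 0.763 and 0.669 CPM in early lesion, and was at least 5.85-fold lower in TUBO (adjusted p = 0.00164), a call lost in the fit of the 4 libraries alone (adjusted p = 0.0685). On the other side Dmrta1 had 0 CPM in both TUBO libraries, against 0.985 and 1.03 CPM in early lesion, and did not pass the test (adjusted p = 0.155), though it did in the fit of the 4 libraries alone (adjusted p = 0.0392). Focad, which overlaps Ptplad2, had 12.7 and 9.53 CPM in TUBO, against 9.38 and 8.88 CPM in early lesion, and did not pass the test. Past it, Mllt3 had 37.4 and 30.4 CPM in TUBO, against 53.6 and 50.4 CPM in early lesion, and was called lower. Read counts do not show whether the DNA of the locus is present, which was not tested. The call of Klhl9 was lost without TUBO replicate 2 (adjusted p = 0.256), without early lesion replicate 1 (adjusted p = 0.179) and without early lesion replicate 2 (adjusted p = 0.093). Mtap, Klhl9, Ptplad2, Focad, Mllt3 and Dmrta1 were chosen after their values were seen.

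Of the 29 tested genes of CDK inhibitors and the p53 pathway 6 rose and 4 fell, with a median of -0.05, bounded median -0.04. Without TUBO replicate 1, TUBO replicate 2, early lesion replicate 1 and early lesion replicate 2 in turn, 5, 5, 5 and 5 were called higher and 5, 4, 3 and 3 lower. Cdkn1a, the p21 gene induced by p53 and by stress, had 191 and 207 CPM in TUBO, against 65.5 and 60.04 CPM in early lesion (log2 fold change 1.66 ± 0.15, adjusted p = 3.64e-05). Gadd45a, a growth arrest gene, had 162 and 166 CPM in TUBO, against 25.7 and 21.9 CPM in early lesion (log2 fold change 2.78 ± 0.30, adjusted p = 0.000348). Plk2, a kinase gene among the p53 targets, had 482 and 525 CPM in TUBO, against 90.3 and 82.9 CPM in early lesion (log2 fold change 2.54 ± 0.16, adjusted p = 3.92e-06). Sesn2, which restrains mTORC1, had 26.9 and 23.1 CPM in TUBO, against 4.64 and 4.37 CPM in early lesion (log2 fold change 2.47 ± 0.20, adjusted p = 2.17e-05). Phlda3 (log2 fold change 1.10 ± 0.20) was also called higher with and without each of the 4 libraries. Sesn1 (log2 fold change -1.88 ± 0.35) was also called lower with and without each of the 4 libraries. In each gene named as higher, both TUBO libraries lay above both early lesion libraries, as in all 1943 genes called higher. Trp53 itself had 207 and 199 CPM in TUBO, against 219.9 and 212 CPM in early lesion, and did not pass the test (log2 fold change -0.09 ± 0.15, adjusted p = 0.677).

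**Figure D2:**
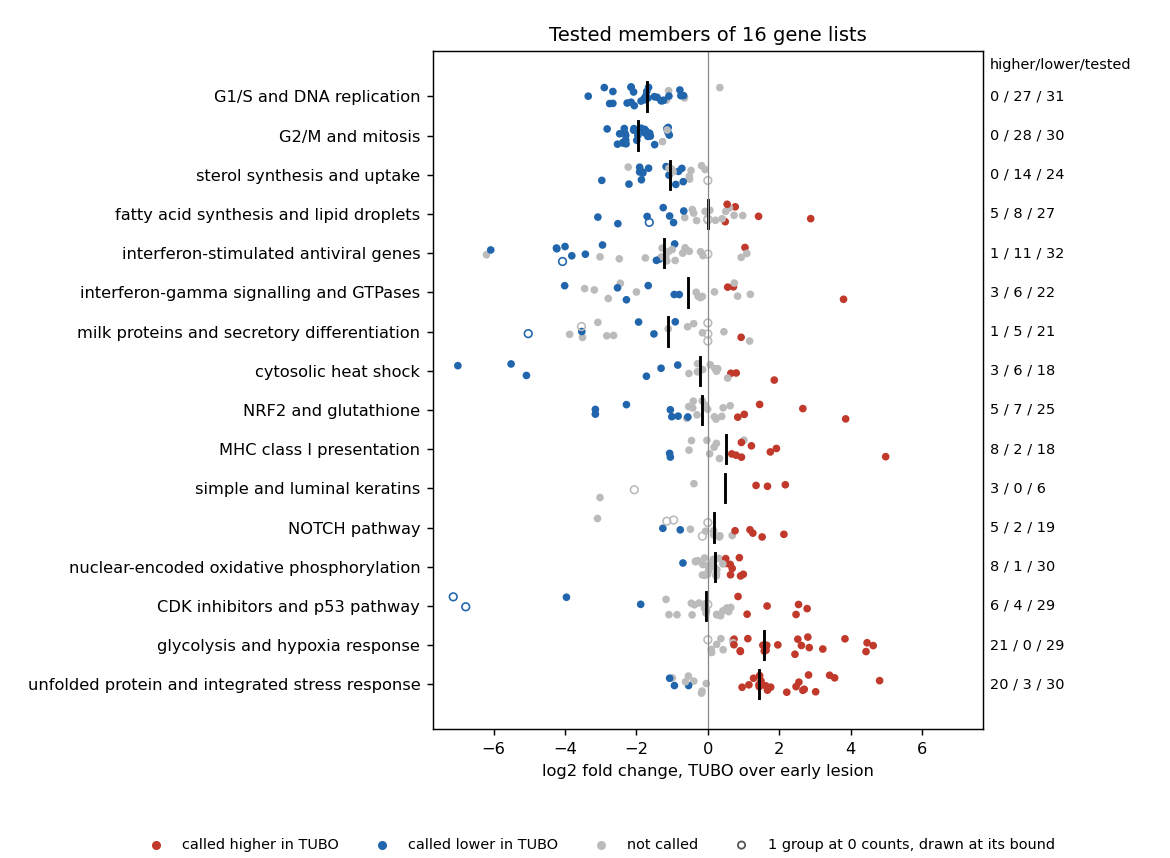
Log2 fold change, TUBO over early lesion, of each tested member of 16 gene lists; black bars are medians, open circles are members without a count in 1 group, drawn at the bound of a 3-count floor, and the numbers give members called higher, called lower and tested. The 2 cell cycle lists lie almost wholly left of 0 (27 of 31 and 28 of 30 called lower), while 21 of 29 members of the glycolysis and hypoxia list and 20 of 30 of the stress response list were called higher.

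Genes of glycolysis and of the hypoxia response were higher in TUBO. When oxygen is short, or when growth factor signalling stabilises it, the factor HIF-1 switches on glucose transporters, glycolytic enzymes and genes of vessel growth, pH control and mitophagy. Of 29 tested genes of this programme 21 rose and none fell, against 11.4% higher over all genes tested, with a median log2 fold change of 1.58. Without early lesion replicate 2 the count was 17, and it was 16 or 17 without any other 1 of the 4 libraries. Summed over the 30 genes, the level was 22040 and 23540 CPM in TUBO, against 10394 and 10120 CPM in early lesion. Among the targets with regulatory roles, Bnip3, a mitophagy receptor, had 305 and 356 CPM in TUBO, against 11.6 and 19.1 CPM in early lesion (log2 fold change 4.43 ± 0.56, adjusted p = 0.00223). Ankrd37 had 50.4 and 58.96 CPM in TUBO, against 1.84 and 3.17 CPM in early lesion (log2 fold change 4.46 ± 0.51, adjusted p = 0.00038). Vegfa, the main growth factor of blood vessels, had 243 and 246 CPM in TUBO, against 38.2 and 31.9 CPM in early lesion (log2 fold change 2.80 ± 0.18, adjusted p = 6.16e-06). Hk2, a hexokinase, had 140.1 and 114 CPM in TUBO, against 8.20 and 9.59 CPM in early lesion (log2 fold change 3.84 ± 0.21, adjusted p = 2.38e-06). Eno2, an enolase, had 56.6 and 54.7 CPM in TUBO, against 1.84 and 2.68 CPM in early lesion (log2 fold change 4.63 ± 0.68, adjusted p = 0.00402). For each of these 5 genes, which were named for their wide gaps, the lower TUBO library was several times the higher early lesion library. Slc2a1, the glucose transporter GLUT1, had 199.6 and 227 CPM in TUBO, against 39.1 and 35.5 CPM in early lesion (log2 fold change 2.52 ± 0.38, adjusted p = 0.00296). Pgk1, an enzyme of lower glycolysis, had 1317 and 1429 CPM in TUBO, against 436 and 441 CPM in early lesion (log2 fold change 1.65 ± 0.29, adjusted p = 0.00334). Hif1a mRNA had 467 and 401 CPM in TUBO, against 215 and 184 CPM in early lesion (log2 fold change 1.12 ± 0.21, adjusted p = 0.00313). The abundant glycolytic enzymes Ldha, Aldoa, Pgam1 and Pfkp had log2 fold changes of 0.91, 0.91, 0.73 and 0.73. Ldha lost its call without TUBO replicate 2 (adjusted p = 0.0635), and the other 3 lost theirs without each of TUBO replicate 1, TUBO replicate 2, early lesion replicate 1 and early lesion replicate 2 (adjusted p from 0.0679 to 0.209). P4ha1 (log2 fold change 1.54 ± 0.22) and Car12 (3.22 ± 0.19) mark the range of the other members called higher with and without each of the 4 libraries. Eno1 was not tested, having almost no counts in any library; it has near-identical copies in the mouse genome, among which its reads could be lost. Slc2a1, Pgk1, Hif1a, Ldha, Aldoa, Pgam1, Pfkp and Eno1 were chosen after their values were seen.

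The core of the HIF element, ACGTG, was found on either strand in the RefSeq promoters of 14 of 19 genes of this list that rose and had an entry (73.7%), in 5 of 7 that did not pass the test (71.4%), and in 21.8% of all 27025 genes. The promoter stretches shown belong to 3 of the genes with the largest changes, with ACGTG or its reverse complement in capitals. In Bnip3 both overlap as CACGTG.
Bnip3 chr7:138909573-138909652 minus strand: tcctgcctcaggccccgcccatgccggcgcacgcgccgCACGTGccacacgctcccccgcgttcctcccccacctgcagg
Ankrd37 chr8:46000021-46000100 minus strand: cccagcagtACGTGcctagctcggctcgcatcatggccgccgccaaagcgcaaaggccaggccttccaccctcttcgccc
Hk2 chr6:82774625-82774704 minus strand: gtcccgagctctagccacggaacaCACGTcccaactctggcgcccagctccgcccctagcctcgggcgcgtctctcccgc

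The integrated stress response was higher in TUBO, while no chaperone gene of the endoplasmic reticulum on the list was called higher. In this response, kinases that sense amino acid shortage, unfolded protein or other stress phosphorylate eIF2alpha, and the factor ATF4 then raises genes of amino acid supply and of stress signalling. Of 30 genes of the unfolded protein and integrated stress responses 20 rose and 3 fell, against 11.4% higher and 12.7% lower over all genes tested, with a median of 1.44; all 20 genes that rose were also called higher without early lesion replicate 2, and 19 or 20 were called higher without any other 1 of the 4 libraries. Chac1, a glutathione-degrading enzyme, had 51.6 and 82.2 CPM in TUBO, against 2.45 and 2.32 CPM in early lesion (log2 fold change 4.81 ± 0.31, adjusted p = 1.01e-05). Asns, asparagine synthetase, had 302 and 315 CPM in TUBO, against 28.3 and 24.4 CPM in early lesion (log2 fold change 3.55 ± 0.17, adjusted p = 1.19e-06). The pseudokinase gene Trib3 had 135 and 143 CPM in TUBO, against 12.5 and 13.7 CPM in early lesion (log2 fold change 3.41 ± 0.16, adjusted p = 1.19e-06). Ddit3, which encodes the factor CHOP, had 60.5 and 73.5 CPM in TUBO, against 9.25 and 7.18 CPM in early lesion (log2 fold change 3.02 ± 0.18, adjusted p = 3.68e-06). Each of these 4 genes, which were named for their wide gaps, was several-fold higher in both TUBO libraries than in both early lesion libraries. Atf4 mRNA itself had 418 and 466 CPM in TUBO, against 149 and 138 CPM in early lesion (log2 fold change 1.62 ± 0.16, adjusted p = 6.29e-05).

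Genes of serine and one-carbon supply on the list rose as well. On the log2 scale Phgdh changed by 1.45 ± 0.16 (adjusted p = 0.000166), Psat1 by 1.76 ± 0.15 (adjusted p = 3.53e-05) and Mthfd2 by 2.83 ± 0.19 (adjusted p = 7.29e-06). Slc7a11, the cystine transporter, had 23.6 and 18.8 CPM in TUBO, against 2.57 and 4.19 CPM in early lesion (log2 fold change 2.66 ± 0.25, adjusted p = 5.14e-05). Xbp1, a factor of the unfolded protein response and of secretory cells, had 304 and 322 CPM in TUBO, against 110.1 and 113 CPM in early lesion (log2 fold change 1.49 ± 0.21, adjusted p = 0.000609). Vldlr (log2 fold change 1.15 ± 0.17) and Ppp1r15a (2.70 ± 0.19) mark the range of the other members called higher with and without each of the 4 libraries. The 3 members that fell were chaperone genes. Dnajc3, a cochaperone, had 80.9 and 82.95 CPM in TUBO, against 164 and 149.6 CPM in early lesion (log2 fold change -0.94 ± 0.17, adjusted p = 0.00304). Calr, calreticulin, had 399.6 and 346 CPM in TUBO, against 810.0 and 757 CPM in early lesion (log2 fold change -1.07 ± 0.31, adjusted p = 0.0391). Dnajb11 had 51.2 and 57.2 CPM in TUBO, against 86.2 and 71.2 CPM in early lesion (log2 fold change -0.54 ± 0.16, adjusted p = 0.0319). The call of Calr was lost without TUBO replicate 1 (adjusted p = 0.0741), without TUBO replicate 2 (adjusted p = 0.22), without early lesion replicate 1 (adjusted p = 0.118) and without early lesion replicate 2 (adjusted p = 0.0985), and that of Dnajb11 without TUBO replicate 1 (adjusted p = 0.12), without TUBO replicate 2 (adjusted p = 0.0874), without early lesion replicate 1 (adjusted p = 0.234) and without early lesion replicate 2 (adjusted p = 0.0547). Hspa5, the main chaperone BiP, had 811 and 766 CPM in TUBO, against 876 and 909 CPM in early lesion, and did not pass the test (log2 fold change -0.18 ± 0.27, adjusted p = 0.646). Atf4, Phgdh, Psat1, Mthfd2, Dnajb11 and Hspa5 were chosen after their values were seen.

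The C/EBP-ATF response element, searched as TGATGNAA on both strands, was found in the RefSeq promoters of 8 of 18 members of this list that rose and had an entry (44.4%), in none of 7 that did not pass the test and in none of 3 that fell, against 4.51% of all 27025 genes. As a description of letters in a 300-base window this says nothing of binding. Promoters of 4 genes that rose are shown, with the element or its reverse complement in capitals; that of Slc7a11 holds the element on both strands.
Chac1 chr2:119351013-119351092 plus strand: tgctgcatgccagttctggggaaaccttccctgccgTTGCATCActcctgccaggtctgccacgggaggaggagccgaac
Asns chr6:7693189-7693268 minus strand: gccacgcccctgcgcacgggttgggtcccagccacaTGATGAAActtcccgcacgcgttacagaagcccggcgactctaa
Trib3 chr2:152344011-152344090 minus strand: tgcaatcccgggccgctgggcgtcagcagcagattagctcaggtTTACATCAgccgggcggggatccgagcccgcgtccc
Slc7a11 chr3:50443636-50443715 minus strand: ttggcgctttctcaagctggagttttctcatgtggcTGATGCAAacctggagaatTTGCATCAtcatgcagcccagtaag

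**Figure D3:**
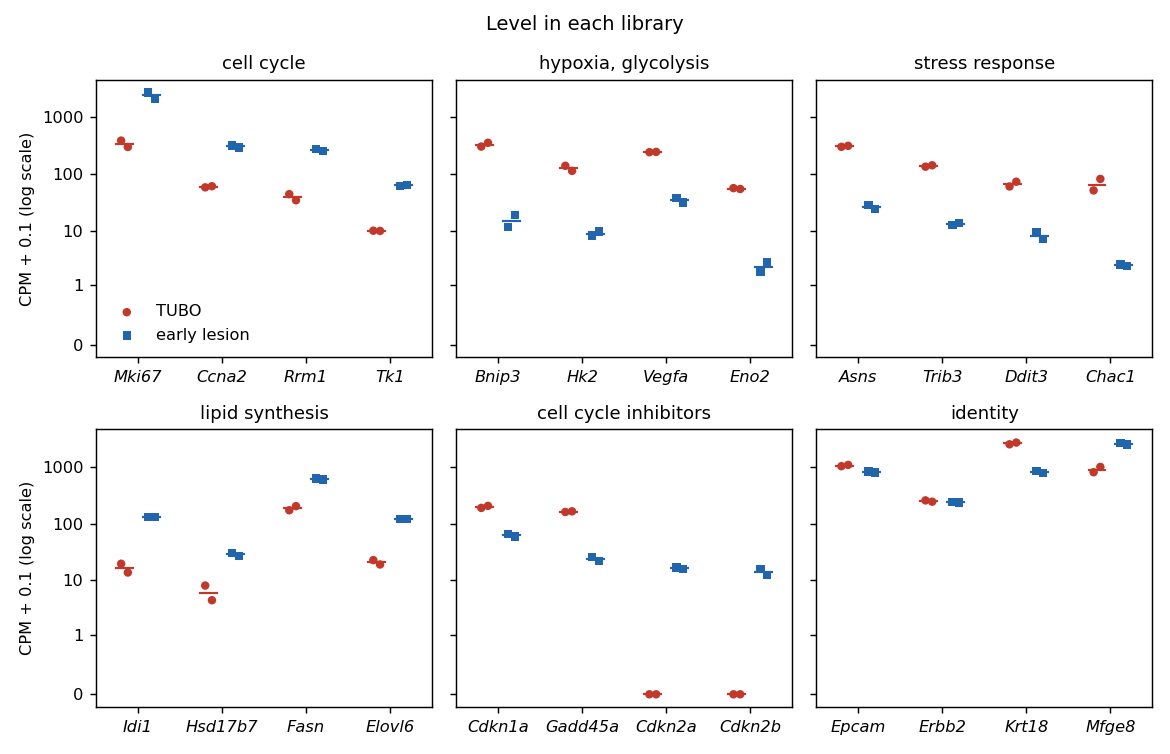
CPM + 0.1 on a log scale of 24 genes in each of the 4 libraries (circles, TUBO; squares, early lesion; short lines, mean of the log values). Cell cycle and lipid synthesis genes lie lower in TUBO and hypoxia and stress response genes higher, Cdkn2a and Cdkn2b are at 0 CPM in both TUBO libraries, and Erbb2 lies at nearly the same level in all 4 libraries.

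Genes of sterol synthesis were lower in TUBO. Of 24 genes of sterol synthesis and uptake, most of them targets of SREBP-2, 14 fell and none rose, against 12.7% lower over all genes tested, with a median of -1.09, bounded median -1.05. The count was 13, 9, 11 and 11 without TUBO replicate 1, TUBO replicate 2, early lesion replicate 1 and early lesion replicate 2. Idi1, which makes the isoprene unit dimethylallyl pyrophosphate, had 19.7 and 13.8 CPM in TUBO, against 133 and 131 CPM in early lesion (log2 fold change -2.97 ± 0.40, adjusted p = 0.00146). Hsd17b7 had 8.11 and 4.42 CPM in TUBO, against 30.9 and 27.1 CPM in early lesion (log2 fold change -2.21 ± 0.36, adjusted p = 0.00143). Insig1, which holds SREBP in the endoplasmic reticulum and is itself induced by it, had 28.2 and 28.1 CPM in TUBO, against 104 and 101 CPM in early lesion (log2 fold change -1.87 ± 0.34, adjusted p = 0.00493); the call was lost without TUBO replicate 2 (adjusted p = 0.061). Nsdhl (log2 fold change -1.82 ± 0.25), Pmvk (-1.66 ± 0.24), Sc5d (-1.17 ± 0.20) and Dhcr7 (-0.73 ± 0.15) were also called lower with and without each of the 4 libraries. Srebf2, the gene of SREBP-2, had 152 and 186 CPM in TUBO, against 181 and 175 CPM in early lesion, and did not pass the test (adjusted p = 0.897). Among promoters of the list the sterol element searched as TCACNCCAC was found in 1 of 11 of those that fell, against 1.44% of all genes. Srebf2 was chosen after its values were seen.

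Fatty acid synthesis and storage genes were split. Of 27 tested, 5 rose and 8 fell (median -0.08, bounded median 0.00); 8 of those that fell and 2 of those that rose were also called without early lesion replicate 2, and 2 rose without TUBO replicate 1, TUBO replicate 2 or early lesion replicate 1. Fasn, fatty acid synthase, had 173 and 205 CPM in TUBO, against 625 and 601 CPM in early lesion (log2 fold change -1.70 ± 0.15, adjusted p = 3.79e-05). Elovl6, which lengthens its product, had 22.9 and 19.2 CPM in TUBO, against 121 and 120.4 CPM in early lesion (log2 fold change -2.52 ± 0.19, adjusted p = 1.46e-05). Opposite to them, the desaturase gene Fads1, which acts on polyunsaturated fatty acids, had 396 and 344 CPM in TUBO, against 49.7 and 51.1 CPM in early lesion (log2 fold change 2.88 ± 0.28, adjusted p = 0.000168). Acsl1, which activates fatty acids with coenzyme A, had 26.4 and 24.9 CPM in TUBO, against 10.4 and 8.65 CPM in early lesion (log2 fold change 1.43 ± 0.19, adjusted p = 0.00047). Elovl5 (log2 fold change -1.07 ± 0.14) and Acly (-0.96 ± 0.16) were also called lower with and without each of the 4 libraries. Pparg had 0 CPM in both TUBO libraries, against 0.540 and 0.357 CPM in early lesion, and was at least 3.12-fold lower in TUBO (adjusted p = 0.00352), a call lost in the fit of the 4 libraries alone (adjusted p = 0.13).

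Some luminal keratins were higher in TUBO and some products and factors of mammary differentiation were lower. Over all genes tested 11.4% were called higher and 12.7% lower. Krt18 had 2510 and 2694 CPM in TUBO, against 849 and 784 CPM in early lesion (log2 fold change 1.67 ± 0.27, adjusted p = 0.00175). Its partner Krt8 had 1031 and 1181 CPM in TUBO, against 439.5 and 428 CPM in early lesion (log2 fold change 1.35 ± 0.17, adjusted p = 0.000327). Krt23 had 78.5 and 74.6 CPM in TUBO, against 16.2 and 17.7 CPM in early lesion (log2 fold change 2.18 ± 0.34, adjusted p = 0.00243). These were 3 of 6 tested simple keratins, and none fell in the main fit. Other fits did call some of the 6 lower. There was 1 with RLE factors, 1 with a minimum of 50 counts and 1 with DESeq2, and there were 2 in the fit of the 4 libraries alone. Of 6 tested stratified and basal keratins 1 fell and none rose. It was Krt16, named after its values were seen, which had 0 CPM in both TUBO libraries, against 0.254 and 0.758 CPM in early lesion, at least 2.22-fold lower in TUBO (adjusted p = 0.0404), and its call was lost without TUBO replicate 1 (adjusted p = 0.106), without TUBO replicate 2 (adjusted p = 0.124) and without early lesion replicate 2 (adjusted p = 0.0926). Of 22 mammary luminal transcription factors 2 rose and 6 fell (median -0.34, bounded median -0.17), and the counts without TUBO replicate 1, TUBO replicate 2, early lesion replicate 1 and early lesion replicate 2 were 1, 2, 2 and 1 higher and 4, 2, 6 and 4 lower. Tfap2b, an AP-2 factor of luminal cells, on chromosome 1 at 19208914 to 19238576, had 0 CPM in both TUBO libraries, against 72.6 and 59.95 CPM in early lesion, and was at least 524-fold lower in TUBO (adjusted p = 0.00079). Gata3, which maintains luminal fate, had 101 and 93.6 CPM in TUBO, against 204 and 164 CPM in early lesion (log2 fold change -0.92 ± 0.26, adjusted p = 0.0282). Trps1, a GATA-type repressor of luminal cells, had 294 and 245 CPM in TUBO, against 523 and 465 CPM in early lesion (log2 fold change -0.87 ± 0.17, adjusted p = 0.00439). The call of Gata3 was lost without TUBO replicate 1 (adjusted p = 0.0746), without TUBO replicate 2 (adjusted p = 0.183) and without early lesion replicate 1 (adjusted p = 0.137), and that of Trps1 without TUBO replicate 2 (adjusted p = 0.0586). Xbp1 (log2 fold change 1.49 ± 0.21) was also called higher with and without each of the 4 libraries. Msx1 had 0 CPM in both TUBO libraries, against 0.350 and 1.29 CPM in early lesion, and was at least 3.06-fold lower in TUBO (adjusted p = 0.00364), a call lost in the fit of the 4 libraries alone (adjusted p = 0.065).

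Among 21 tested genes of milk and secretory differentiation 1 rose and 5 fell (median -1.94, bounded median -1.11), with 3 lower and none higher without early lesion replicate 2 and 2 lower and none higher without any other 1 of the 4 libraries. Over all genes tested 11.4% were called higher and 12.7% lower with all libraries. Mfge8, a milk fat globule protein, had 809.9 and 1003 CPM in TUBO, against 2668 and 2499 CPM in early lesion (log2 fold change -1.51 ± 0.30, adjusted p = 0.00543). Csn3, kappa-casein, had 3117 and 3460 CPM in TUBO, against 14472 and 10828 CPM in early lesion (log2 fold change -1.94 ± 0.45, adjusted p = 0.0159) and lost its call without TUBO replicate 1 (adjusted p = 0.119), without TUBO replicate 2 (adjusted p = 0.129) and without early lesion replicate 1 (adjusted p = 0.0911). Csn1s1, an alpha casein, had 0 CPM in both TUBO libraries, against 4.23 and 3.75 CPM in early lesion, and was at least 32.8-fold lower in TUBO (adjusted p = 0.0125). The beta-casein gene Csn2 had 0 CPM in both TUBO libraries, against 0 and 0.624 CPM in early lesion, and was not tested. Trf, transferrin, was the member that rose, with 10267 and 9601 CPM in TUBO, against 5337 and 5076 CPM in early lesion (log2 fold change 0.93 ± 0.28, adjusted p = 0.0347), a call that was lost without TUBO replicate 1 (adjusted p = 0.175), without TUBO replicate 2 (adjusted p = 0.107), without early lesion replicate 1 (adjusted p = 0.108) and without early lesion replicate 2 (adjusted p = 0.168). Lcn2, lipocalin 2, had 8125 and 8673 CPM in TUBO, against 13163 and 11720 CPM in early lesion, and did not pass the test (log2 fold change -0.57 ± 0.85, adjusted p = 0.655), though it did in the fit of the 4 libraries alone (adjusted p = 0.0106).

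Estrogen and progesterone receptor genes were nearly silent in both groups. Esr1, the estrogen receptor gene, had 0 CPM in both TUBO libraries, against 0.254 and 0.937 CPM in early lesion, and Pgr, the progesterone receptor gene, had 0.104 and 1.18 CPM in TUBO, against 0 and 0.669 CPM in early lesion; Esr1 was called lower (adjusted p = 0.00669) on these few counts. The prolactin receptor gene Prlr had 118 and 98.4 CPM in TUBO, against 122 and 109.9 CPM in early lesion (log2 fold change -0.10 ± 0.71, adjusted p = 0.933), and was chosen after its values were seen. Of 16 tested genes of hormone receptors and hormone-sensing cells 2 rose and 3 fell (median -0.31, bounded median 0.00), with higher counts of 2, 1, 2 and 1 and lower counts of 2, 2, 4 and 2 without TUBO replicate 1, TUBO replicate 2, early lesion replicate 1 and early lesion replicate 2. Prom1, a membrane glycoprotein used as a progenitor marker, had 0.241 and 0 CPM in TUBO, against 76.7 and 71.3 CPM in early lesion (log2 fold change -9.14 ± 0.60, adjusted p = 3.66e-05). Pglyrp1, a peptidoglycan recognition protein, had 1747 and 1698 CPM in TUBO, against 579.9 and 578 CPM in early lesion (log2 fold change 1.57 ± 0.27, adjusted p = 0.00232).

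The receptors of the ERBB family did not differ past the threshold between the groups. Erbb2 had 258 and 245 CPM in TUBO, against 245 and 238 CPM in early lesion (log2 fold change 0.06 ± 0.14, adjusted p = 0.777), and the closest libraries of both groups were nearly level. Reads of the rat transgene that match the mouse gene cannot be told from its own. Erbb3, its main partner in luminal tumours, had 200.1 and 193 CPM in TUBO, against 159 and 167 CPM in early lesion (log2 fold change 0.27 ± 0.14, adjusted p = 0.178). Egfr had 26.1 and 24.5 CPM in TUBO, against 34.3 and 31.4 CPM in early lesion (log2 fold change -0.38 ± 0.21, adjusted p = 0.222), which passed in the fit of the 4 libraries alone (adjusted p = 0.0491). Some ERBB ligands did differ. Hbegf, a ligand of EGFR and ERBB4, had 183 and 198 CPM in TUBO, against 78.8 and 73.1 CPM in early lesion (log2 fold change 1.33 ± 0.23, adjusted p = 0.00236). Nrg1, the neuregulin that binds ERBB3 and ERBB4, had 1.55 and 0.877 CPM in TUBO, against 8.36 and 10.04 CPM in early lesion (log2 fold change -2.90 ± 0.46, adjusted p = 0.00244). Of 18 tested receptors, ligands and adaptors 4 rose and 3 fell (median 0.00), and the counts without TUBO replicate 1, TUBO replicate 2, early lesion replicate 1 and early lesion replicate 2 were 1, 1, 1 and 1 higher and 2, 2, 2 and 3 lower. The EGFR ligand gene Tgfa and the feedback inhibitor genes Lrig1 and Errfi1, called higher with all libraries (0.90, 0.74 and 0.57 on the log2 scale), lost their calls without each of these 4 libraries (adjusted p from 0.0578 to 0.155). Shc1 (log2 fold change -1.24 ± 0.18) was also called lower with and without each of the 4 libraries.

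Interferon-stimulated antiviral genes were lower in TUBO where they were called, with 1 exception. Of 32 such genes 11 fell and 1 rose, against 12.7% lower over all genes tested (median -1.29, bounded median -1.23); the lower count was 8, 7, 7 and 8 without TUBO replicate 1, TUBO replicate 2, early lesion replicate 1 and early lesion replicate 2, and 18 with DESeq2. Summed over the list the level was low, at 198 and 207 CPM in TUBO, against 389 and 362 CPM in early lesion. Ifit2, which blocks translation of viral RNA, had 1.38 and 0.572 CPM in TUBO, against 19.7 and 17.8 CPM in early lesion (log2 fold change -4.24 ± 0.55, adjusted p = 0.00226). The ubiquitin ligase gene Trim30a had 0 CPM in both TUBO libraries, against 2.29 and 1.92 CPM in early lesion, and was at least 16.8-fold lower in TUBO (adjusted p = 0.000763). Bst2, the antiviral protein tetherin, rose: it had 25.8 and 26.5 CPM in TUBO, against 11.8 and 13.7 CPM in early lesion (log2 fold change 1.04 ± 0.15, adjusted p = 0.000625). Ifi27l2a (log2 fold change -3.81 ± 0.48), Ifi44 (-3.43 ± 0.57) and Ddx58 (-1.35 ± 0.27) were also called lower with and without each of the 4 libraries. Among 22 interferon-gamma response genes, GTPases included, 3 rose and 6 fell (median -0.56), with higher counts of 2, 1, 1 and 1 and lower counts of 8, 3, 5 and 3 in the same order of libraries left out. The GTPase genes Iigp1, Gbp3 and Gbp2 fell. Iigp1 had 0.690 and 0.0381 CPM in TUBO, against 6.93 and 5.31 CPM in early lesion (log2 fold change -4.01 ± 0.59, adjusted p = 0.00267). Gbp3 had 1.45 and 2.10 CPM in TUBO, against 10.7 and 9.72 CPM in early lesion (log2 fold change -2.53 ± 0.21, adjusted p = 2.35e-05). Gbp2 had 1.04 and 0.877 CPM in TUBO, against 4.67 and 4.68 CPM in early lesion (log2 fold change -2.28 ± 0.32, adjusted p = 0.00066); Gbp genes are similar to each other, so their counts are uncertain. Irf8, an interferon regulatory factor best known from myeloid and B cells, rose instead and had 60.3 and 77.4 CPM in TUBO, against 4.77 and 5.13 CPM in early lesion (log2 fold change 3.80 ± 0.23, adjusted p = 3.96e-06).

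Antigen presentation genes were partly higher in TUBO. Of 18 tested MHC class I presentation genes 8 rose and 2 fell, against 11.4% higher and 12.7% lower over all genes tested (median 0.50), with higher counts of 6, 5, 4 and 4 and lower counts of 1, 0, 1 and 1 without TUBO replicate 1, TUBO replicate 2, early lesion replicate 1 and early lesion replicate 2. Psmb8, an immunoproteasome subunit, had 47.6 and 56.6 CPM in TUBO, against 1.30 and 2.05 CPM in early lesion (log2 fold change 4.98 ± 0.30, adjusted p = 3.41e-06). The peptide transporter gene Tap1 had 11.6 and 13.2 CPM in TUBO, against 5.21 and 5.40 CPM in early lesion (log2 fold change 1.22 ± 0.16, adjusted p = 0.000399). The class I gene H2-D1 had 35.6 and 36 CPM in TUBO, against 9.34 and 9.63 CPM in early lesion (log2 fold change 1.92 ± 0.16, adjusted p = 2.45e-05). H2-K1 had 75.1 and 104 CPM in TUBO, against 56.3 and 46.9 CPM in early lesion (log2 fold change 0.79 ± 0.22, adjusted p = 0.0276), a call that was lost without TUBO replicate 2 (adjusted p = 0.235), without early lesion replicate 1 (adjusted p = 0.0528) and without early lesion replicate 2 (adjusted p = 0.177). Class I genes differ between mouse strains and are similar to each other, so reads of a strain unlike the reference can be lost or misplaced, and the strains were not given. The summed level of the list was 2021 and 2013 CPM in TUBO, against 2805 and 2509 CPM in early lesion, and its most abundant members include the chaperones Calr, given above, and Pdia3. Pdia3 had 495 and 452 CPM in TUBO, against 1052 and 906 CPM in early lesion (log2 fold change -1.05 ± 0.23, adjusted p = 0.00887), a call lost without TUBO replicate 2 (adjusted p = 0.0762). Of 12 tested class II genes 2 rose and none fell (median -1.97, bounded median 0.00). Cd74, the invariant chain, had 30.4 and 38.1 CPM in TUBO, against 0.0636 and 0.535 CPM in early lesion (log2 fold change 6.99 ± 0.53, adjusted p = 0.000106). H2-DMa had 5.28 and 6.33 CPM in TUBO, against 2.45 and 2.32 CPM in early lesion (log2 fold change 1.28 ± 0.30, adjusted p = 0.0118), a call lost without TUBO replicate 2 (adjusted p = 0.0669), without early lesion replicate 1 (adjusted p = 0.0527) and without early lesion replicate 2 (adjusted p = 0.072).

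Genes of the matrix and of cell shape changed in both directions. For basement membrane and integrin genes the shares called were no larger than the 11.4% higher and 12.7% lower over all genes tested. Ctgf, a matricellular target of YAP and TGF-beta listed with the immediate-early genes, had 0.310 and 0.534 CPM in TUBO, against 176 and 149 CPM in early lesion (log2 fold change -8.59 ± 0.45, adjusted p = 8.24e-06). Thbs1, thrombospondin 1, had 261 and 241 CPM in TUBO, against 856 and 781 CPM in early lesion (log2 fold change -1.70 ± 0.25, adjusted p = 0.000781). Col12a1, a fibril-associated collagen, had 0 and 0.114 CPM in TUBO, against 10.8 and 11.3 CPM in early lesion, a ratio of early lesion over TUBO of 203 (95% exact counting interval 68.97 to 985), adjusted p = 0.000541. Of 26 collagen and fibrillar matrix genes 4 rose and 6 fell (median -1.60, bounded median -0.86), with higher counts of 2, 1, 1 and 2 and lower counts of 4, 3, 8 and 3 without TUBO replicate 1, TUBO replicate 2, early lesion replicate 1 and early lesion replicate 2. Tnc, a tenascin of this list (log2 fold change 1.32 ± 0.23) was called higher with and without each of the 4 libraries. Of 27 basement membrane and integrin genes 3 rose and 2 fell (median -0.08, bounded median -0.02), and 2, 2, 2 and 2 rose and 0, 0, 4 and 1 fell in the same order of libraries left out. Lama5, a laminin chain of epithelial basement membranes, had 373 and 353 CPM in TUBO, against 103 and 122 CPM in early lesion (log2 fold change 1.70 ± 0.19, adjusted p = 0.000157). Cd44, the hyaluronan receptor, had 325 and 294 CPM in TUBO, against 159 and 128 CPM in early lesion (log2 fold change 1.11 ± 0.16, adjusted p = 0.000882).

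Of 28 tested matrix proteases and inhibitors 7 rose and 8 fell (median -0.56, bounded median 0.03), with higher counts of 5, 6, 7 and 6 and lower counts of 6, 5, 8 and 5 without TUBO replicate 1, TUBO replicate 2, early lesion replicate 1 and early lesion replicate 2. Adam12, a membrane-bound metalloprotease, had 2.21 and 1.91 CPM in TUBO, against 78.8 and 71.2 CPM in early lesion (log2 fold change -5.18 ± 0.27, adjusted p = 1.70e-06). Of the inhibitors, Timp3 had 58.9 and 56.98 CPM in TUBO, against 279 and 230.4 CPM in early lesion (log2 fold change -2.14 ± 0.17, adjusted p = 2.03e-05). Timp2 had 80.4 and 70.4 CPM in TUBO, against 20.5 and 14.1 CPM in early lesion (log2 fold change 2.12 ± 0.21, adjusted p = 6.42e-05), so these 2 members of 1 family moved in opposite directions. Ctsb (log2 fold change 0.90 ± 0.15), Plaur (1.34 ± 0.23), Mmp2 (1.43 ± 0.26) and Mmp11 (1.95 ± 0.31) were also called higher with and without each of the 4 libraries. Plau (log2 fold change -2.15 ± 0.34) and Mmp14 (-1.60 ± 0.27) were also called lower with and without each of the 4 libraries. Adam8 had 0 CPM in both TUBO libraries, against 1.59 and 2.28 CPM in early lesion, and was at least 13.9-fold lower in TUBO (adjusted p = 7.76e-05).

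Factors of the epithelial-mesenchymal transition also differed in direction. Of 18 genes 3 rose and 5 fell (median -0.90, bounded median -0.33), with higher counts of 3, 2, 2 and 3 and lower counts of 6, 3, 7 and 3 without TUBO replicate 1, TUBO replicate 2, early lesion replicate 1 and early lesion replicate 2. Twist1, a basic helix-loop-helix repressor of epithelial genes, had 64.9 and 73.4 CPM in TUBO, against 4.89 and 5.40 CPM in early lesion (log2 fold change 3.75 ± 0.25, adjusted p = 6.93e-06). Zeb2 had 10.9 and 12.9 CPM in TUBO, against 3.81 and 2.68 CPM in early lesion (log2 fold change 1.86 ± 0.20, adjusted p = 0.000132). Cdh2, which encodes N-cadherin, had 0.276 and 0 CPM in TUBO, against 28.1 and 24.3 CPM in early lesion (log2 fold change -7.46 ± 0.48, adjusted p = 2.03e-05). Twist1 and Cdh2, both counted as mesenchymal genes, thus moved in opposite directions. Zeb1 had 0.0345 and 0 CPM in TUBO, against 0.572 and 0.937 CPM in early lesion, a ratio of early lesion over TUBO of 39.96 (95% exact counting interval 6.76 to 1618), adjusted p = 0.00125. Prrx1 had 0.104 and 0 CPM in TUBO, against 1.34 and 1.38 CPM in early lesion, a ratio of early lesion over TUBO of 24.9 (95% exact counting interval 8.20 to 124), adjusted p = 0.00035. Both calls were lost in the fit of the 4 libraries alone (adjusted p = 0.107 for Zeb1 and 0.0762 for Prrx1).

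Several NOTCH pathway genes were higher in TUBO. Among 19 genes 5 rose and 2 fell, against 11.4% higher and 12.7% lower over all genes tested (median 0.16), with higher counts of 5, 4, 4 and 4 and lower counts of 2, 0, 1 and 1 without TUBO replicate 1, TUBO replicate 2, early lesion replicate 1 and early lesion replicate 2. The ligand gene Jag1 had 102 and 91.3 CPM in TUBO, against 41.9 and 38.98 CPM in early lesion (log2 fold change 1.26 ± 0.20, adjusted p = 0.0012). The receptor gene Notch1 had 259 and 233 CPM in TUBO, against 59.6 and 52.5 CPM in early lesion (log2 fold change 2.13 ± 0.28, adjusted p = 0.000785). The target gene Hey1 had 289 and 295 CPM in TUBO, against 102 and 102 CPM in early lesion (log2 fold change 1.52 ± 0.18, adjusted p = 0.0002). Ligand, receptor and target were each higher in both TUBO libraries than in both early lesion libraries, as were all 1943 genes called higher. Notch2, another receptor, went the other way with 62.5 and 52.4 CPM in TUBO, against 104 and 92.02 CPM in early lesion (log2 fold change -0.77 ± 0.15, adjusted p = 0.00438), a call that was lost without TUBO replicate 2 (adjusted p = 0.0573). Maml1 (log2 fold change 1.19 ± 0.15) was also called higher with and without each of the 4 libraries.

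WNT and TGF-beta genes were called in both directions, where 11.4% of all genes tested were higher and 12.7% lower. Of 31 tested WNT genes 6 rose and 4 fell (median -0.37, bounded median 0.00), with higher counts of 4, 4, 4 and 5 and lower counts of 4, 3, 5 and 3 without TUBO replicate 1, TUBO replicate 2, early lesion replicate 1 and early lesion replicate 2. The ligand Wnt7b had 102 and 117 CPM in TUBO, against 21.1 and 24.5 CPM in early lesion (log2 fold change 2.27 ± 0.19, adjusted p = 2.89e-05). Wnt5a, a ligand of the branch that does not use beta-catenin, had 0.414 and 2.10 CPM in TUBO, against 41.7 and 35.5 CPM in early lesion (log2 fold change -4.96 ± 0.55, adjusted p = 0.00114). Tcf7, a nuclear factor of the pathway, had 29.7 and 33.9 CPM in TUBO, against 9.22 and 10.8 CPM in early lesion (log2 fold change 1.67 ± 0.28, adjusted p = 0.00182). Fzd7 (log2 fold change 1.24 ± 0.22) and Fzd4 (2.26 ± 0.48) were also called higher with and without each of the 4 libraries. Lgr6 (log2 fold change -3.96 ± 0.69) and Wnt5b (-1.84 ± 0.38) were also called lower with and without each of the 4 libraries. Of 28 TGF-beta and BMP genes 5 rose and 9 fell (median -0.47, bounded median -0.31), with higher counts of 3, 3, 3 and 4 and lower counts of 5, 5, 7 and 6 in the same order of libraries left out. Among the ligands, Bmp7 had 52.4 and 59.9 CPM in TUBO, against 6.42 and 6.20 CPM in early lesion (log2 fold change 3.15 ± 0.18, adjusted p = 2.38e-06). Tgfb1 had 0.276 and 0 CPM in TUBO, against 10.8 and 15.4 CPM in early lesion (log2 fold change -6.45 ± 0.81, adjusted p = 0.00214). The receptor genes moved in both directions too: Tgfbr1 had 88.6 and 69.3 CPM in TUBO, against 35.3 and 31.1 CPM in early lesion (log2 fold change 1.25 ± 0.17, adjusted p = 0.000499). Bmpr1a had 86.8 and 60.8 CPM in TUBO, against 158 and 154 CPM in early lesion (log2 fold change -1.08 ± 0.18, adjusted p = 0.00174). Ltbp1 (log2 fold change 1.06 ± 0.21) was also called higher with and without each of the 4 libraries. Inhba (log2 fold change -1.39 ± 0.29) was also called lower with and without each of the 4 libraries, but not in the fit of the 4 libraries alone (adjusted p = 0.379).

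Of 29 tested growth factor and receptor genes 4 rose and 4 fell (median -0.08, bounded median 0.00), with higher counts of 2, 4, 3 and 4 and lower counts of 4, 4, 6 and 4 without TUBO replicate 1, TUBO replicate 2, early lesion replicate 1 and early lesion replicate 2. With all libraries, the shares called in this list were near the 11.4% higher and 12.7% lower over all genes tested. Besides Vegfa, the receptor gene Igf1r rose and had 359.8 and 288 CPM in TUBO, against 170.2 and 156 CPM in early lesion (log2 fold change 0.99 ± 0.16, adjusted p = 0.00163). Igfbp4 and Igfbp3, which bind insulin-like growth factors, fell. Igfbp4 had 0.241 and 0.648 CPM in TUBO, against 39.8 and 39.9 CPM in early lesion (log2 fold change -6.50 ± 0.34, adjusted p = 2.13e-06). Igfbp3 had 0 CPM in both TUBO libraries, against 9.12 and 9.90 CPM in early lesion, and was at least 79.7-fold lower in TUBO (adjusted p = 3.41e-06). Igfbp5 (log2 fold change -2.96 ± 0.39) was also called lower with and without each of the 4 libraries. Igfbp7 had 0 CPM in both TUBO libraries, against 1.97 and 0.981 CPM in early lesion, and was at least 8.58-fold lower in TUBO (adjusted p = 0.00185). Of 29 tested chemokines and cytokines 3 rose and 3 fell (median 0.26), with higher counts of 2, 2, 2 and 3 and lower counts of 4, 2, 3 and 3 in the same order of libraries left out. With all libraries, the shares called among chemokines and cytokines were also near those over all genes tested. Cxcl16, a ligand of CXCR6 on T cells, had 18.5 and 23.5 CPM in TUBO, against 3.97 and 3.70 CPM in early lesion (log2 fold change 2.45 ± 0.37, adjusted p = 0.00143). The alarmin Il33 had 8.55 and 8.39 CPM in TUBO, against 0.445 and 0.624 CPM in early lesion (log2 fold change 3.99 ± 0.55, adjusted p = 0.000606). Cxcl12, which attracts CXCR4-bearing cells, had 0.0345 and 0 CPM in TUBO, against 3.59 and 4.77 CPM in early lesion, a ratio of early lesion over TUBO of 225 (95% exact counting interval 40.04 to 8944), adjusted p = 1.27e-05. Il18 had 0 CPM in both TUBO libraries, against 0.954 and 1.34 CPM in early lesion, and was at least 8.33-fold lower in TUBO (adjusted p = 0.000784). Of 20 complement genes 3 fell and none rose (median -3.43, bounded median 0.00), with lower counts of 1, 1, 5 and 1 in the same order of libraries left out. C3 (log2 fold change -3.07 ± 0.55) was called lower with and without each of the 4 libraries.

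Stress and metabolic programmes outside those above showed smaller or mixed changes. Of 18 cytosolic heat shock genes 3 rose and 6 fell (median -0.22), with higher counts of 2, 1, 2 and 2 and lower counts of 3, 3, 3 and 4 without TUBO replicate 1, TUBO replicate 2, early lesion replicate 1 and early lesion replicate 2. The inducible chaperone gene Hspa1b had 0.655 and 1.68 CPM in TUBO, against 54.8 and 50.98 CPM in early lesion (log2 fold change -5.52 ± 0.48, adjusted p = 0.000234); it shares most of its sequence with Hspa1a, so their counts are uncertain. Hsf1 (log2 fold change 0.79 ± 0.14) was also called higher with and without each of the 4 libraries. Dnajb4 (log2 fold change -1.72 ± 0.18) and Hsp90aa1 (-1.31 ± 0.20) were also called lower with and without each of the 4 libraries. Of 25 genes of the NRF2 and glutathione list 5 rose and 7 fell (median -0.16), with higher counts of 4, 3, 3 and 3 and lower counts of 5, 4, 5 and 6 in the same order of libraries left out. Mt1, a metallothionein that binds zinc, had 276 and 308 CPM in TUBO, against 18.8 and 21.3 CPM in early lesion (log2 fold change 3.86 ± 0.27, adjusted p = 1.78e-05). Gsta4, a glutathione transferase, had 35.4 and 34.4 CPM in TUBO, against 179 and 159 CPM in early lesion (log2 fold change -2.28 ± 0.19, adjusted p = 2.48e-05). Gpx4 (log2 fold change 1.02 ± 0.18) and Slc7a11 (2.66 ± 0.25) were also called higher with and without each of the 4 libraries. Nqo1 (log2 fold change -3.15 ± 0.71), Tkt (-1.05 ± 0.19) and G6pdx (-1.01 ± 0.19) were also called lower with and without each of the 4 libraries. Nqo1, with 0.138 and 0 CPM in TUBO, against 0.540 and 0.847 CPM in early lesion, lost its call in the fit of the 4 libraries alone (adjusted p = 0.264).

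Of 22 immediate-early genes 5 rose and 4 fell (median 0.45), with higher counts of 4, 3, 3 and 3 and lower counts of 3, 2, 3 and 2 without TUBO replicate 1, TUBO replicate 2, early lesion replicate 1 and early lesion replicate 2. Junb, an AP-1 subunit, had 188 and 221 CPM in TUBO, against 46.4 and 51.7 CPM in early lesion (log2 fold change 2.06 ± 0.21, adjusted p = 8.54e-05). Egr1 had 384 and 375 CPM in TUBO, against 147 and 134 CPM in early lesion (log2 fold change 1.44 ± 0.24, adjusted p = 0.00191). Klf4 had 0.276 and 0.572 CPM in TUBO, against 4.55 and 2.77 CPM in early lesion (log2 fold change -3.13 ± 0.37, adjusted p = 0.000275). Atf3 (log2 fold change 2.55 ± 0.28) was also called higher with and without each of the 4 libraries. Of 30 nuclear-encoded subunits of oxidative phosphorylation 8 rose and 1 fell, with a median of 0.21, and higher counts of 4, 2, 2 and 2 and lower counts of 1, 0, 0 and 0 in the same order of libraries left out. Ndufb8, a complex I subunit, had 139 and 171 CPM in TUBO, against 79.9 and 75.96 CPM in early lesion (log2 fold change 0.99 ± 0.17, adjusted p = 0.00232). Of 19 genes of DNA methylation and Polycomb 3 rose and 3 fell (median 0.04), with higher counts of 2, 2, 2 and 2 and lower counts of 4, 2, 3 and 3 in the same order of libraries left out. Kdm6b, a histone H3K27 demethylase, had 348 and 332 CPM in TUBO, against 127 and 117 CPM in early lesion (log2 fold change 1.47 ± 0.19, adjusted p = 0.000381). Dnmt1, which copies DNA methylation during replication, had 129.7 and 108 CPM in TUBO, against 272 and 233 CPM in early lesion (log2 fold change -1.09 ± 0.15, adjusted p = 0.0007). Uhrf1 (log2 fold change -1.51 ± 0.14) was also called lower with and without each of the 4 libraries. Of 30 MYC family and ribosome biogenesis genes 3 rose and 1 fell (median -0.01), with higher counts of 1, 1, 1 and 1 and lower counts of 0, 0, 0 and 1 in the same order of libraries left out. Npm1 (log2 fold change 1.0 ± 0.18) was called higher with and without each of the 4 libraries. Of 16 imprinted and oncofetal genes 2 rose and 1 fell (median -1.61, bounded median -0.75), with higher counts of 2, 2, 2 and 3 and lower counts of 1, 0, 0 and 1 in the same order of libraries left out. Hmga2 (log2 fold change 1.83 ± 0.20) and Igf2bp2 (2.28 ± 0.19) were called higher with and without each of the 4 libraries.

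Outside the lists, the genes with the widest gaps between the groups that were higher in TUBO were mostly silent or low in early lesion. A ranking by log2 gaps favours such genes. Prkcdbp, which encodes the caveolar protein cavin-3, had 104 and 134 CPM in TUBO, against 0 and 0.178 CPM in early lesion (log2 fold change 10.54 ± 0.60, adjusted p = 1.96e-05). Kcnj15, an inward rectifier potassium channel, had 544 and 469 CPM in TUBO, against 2.61 and 3.88 CPM in early lesion (log2 fold change 7.30 ± 0.79, adjusted p = 0.00121). Gjb1, a gap junction connexin, had 59.4 and 72.9 CPM in TUBO, against 0.381 and 0.357 CPM in early lesion (log2 fold change 7.46 ± 0.47, adjusted p = 9.84e-06). Cldn2, a claudin that forms cation pores in tight junctions, had 35.8 and 33.7 CPM in TUBO, against 0.445 and 0.446 CPM in early lesion (log2 fold change 6.27 ± 0.42, adjusted p = 1.34e-05). All 4 encode proteins of membranes or cell contacts. Eva1a had 17.5 and 14.2 CPM in TUBO, against 0.0318 and 0.0446 CPM in early lesion, a ratio of TUBO over early lesion of 429 (95% exact counting interval 118 to 3547), adjusted p = 3.13e-05. Sparcl1, a secreted matricellular protein, had 699 and 739.6 CPM in TUBO, against 16.7 and 14.9 CPM in early lesion (log2 fold change 5.51 ± 0.60, adjusted p = 0.00125). Tns4, a tensin of focal adhesions, had 143 and 132 CPM in TUBO, against 0.636 and 1.83 CPM in early lesion (log2 fold change 6.86 ± 0.52, adjusted p = 9.43e-05). Apobr, a lipoprotein receptor, had 97.02 and 87.3 CPM in TUBO, against 0.954 and 0.624 CPM in early lesion (log2 fold change 6.83 ± 0.27, adjusted p = 9.19e-07). B4galnt2, a glycosyltransferase, had 94.6 and 89.3 CPM in TUBO, against 1.68 and 2.45 CPM in early lesion (log2 fold change 5.49 ± 0.29, adjusted p = 1.78e-06). Selenbp1 had 26.3 and 28.6 CPM in TUBO, against 0.381 and 0.401 CPM in early lesion (log2 fold change 6.12 ± 0.43, adjusted p = 9.56e-06); it has a near-identical neighbour, Selenbp2, so its count is uncertain. Cd74, given above, was also among these 12 genes.

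In the other direction, 33 genes had no count in either TUBO library and at least 10 CPM in both early lesion libraries. Ptprg, a receptor tyrosine phosphatase on chromosome 14 at 11553532 to 12242041, had 0 CPM in both TUBO libraries, against 133 and 117 CPM in early lesion, and was at least 1022-fold lower in TUBO (adjusted p = 3.50e-07). Reln, which encodes the secreted glycoprotein reelin, had 0 CPM in both TUBO libraries, against 29.9 and 31.4 CPM in early lesion, and was at least 261-fold lower in TUBO (adjusted p = 1.41e-05). Slc4a7, a sodium bicarbonate cotransporter, had 0 CPM in both TUBO libraries, against 32.8 and 28.8 CPM in early lesion, and was at least 251-fold lower in TUBO (adjusted p = 1.70e-06). Ppp2r2c, a regulatory subunit of the phosphatase PP2A, had 0 CPM in both TUBO libraries, against 39.9 and 34.8 CPM in early lesion, and was at least 304-fold lower in TUBO (adjusted p = 2.32e-05). Also without a count in TUBO were Tbc1d9 (33.9 and 33.6 CPM in early lesion), Mapre2 (25.9 and 22.2 CPM), which encodes a microtubule end-binding protein, and H1fx (20.7 and 22.1 CPM), a linker histone gene. These 3 were at least 294-fold, 194-fold and 181-fold lower in TUBO. Ociad2 had 0 and 0.0381 CPM in TUBO, against 48.4 and 45.1 CPM in early lesion, that is 1 count in TUBO and 1522 and 1012 counts in early lesion, a ratio of early lesion over TUBO of 2596 (95% exact counting interval 466 to 102594), adjusted p = 1.19e-06.

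Xist, the RNA that coats and silences 1 of the X chromosomes in female cells, was abundant in early lesion and nearly absent in TUBO. It had 1.07 and 3.59 CPM in TUBO, against 2855 and 2566 CPM in early lesion (log2 fold change -10.20 ± 0.59, adjusted p = 1.87e-05) and lies on chromosome X at 103460366 to 103483254. Xist is counted without a strand statement, so reads of its antisense partner Tsix cannot be told apart from its own. On the same chromosome Gpr64, an adhesion receptor, had 0 CPM in both TUBO libraries, against 28.6 and 27.8 CPM in early lesion, and was at least 243-fold lower in TUBO (adjusted p = 1.19e-06). Bhlhb9 had 0 CPM in both TUBO libraries, against 22.3 and 26.2 CPM in early lesion, and was at least 195-fold lower in TUBO (adjusted p = 1.19e-06). Of the 33 genes without a count in TUBO described above, 5 lie on chromosome X and 4 on chromosome 4. At 5 CPM or more in both libraries of a group, chromosomes X, 4, 5 and 14 each held 6 genes without a TUBO count. These chromosomes held 312 (X), 621 (4), 664 (5) and 354 (14) genes of that level, so the share was largest on X. No test of these shares was made. Of the 312 X-linked genes of at least 5 CPM in both libraries of a group, 36 were called higher (11.5%) and 76 lower (24.4%). Their median log2 fold change was -0.18. Over all genes of that level 18.2% were called higher and 16.4% lower. On single autosomes the share called lower ran from 7.3% to 35.6%, and the median from -0.375 to 0.41, so the X chromosome lay within their range. Gjb1 and Cldn2, both named above for their high levels in TUBO, are X-linked as well.

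Whole chromosomes differed in their balance of higher and lower genes, a pattern looked for after the data were seen. Over 10351 genes of at least 5 CPM in both libraries of a group, 18.2% were called higher and 16.4% lower. On chromosome 4, 34.1% of 621 genes were higher and 9.02% lower, and the median log2 fold change was 0.41. The medians were also above 0 on chromosomes 19 (0.36), 11 (0.29), 8 (0.26) and 15 (0.26). On chromosome 14, 10.5% of 354 genes were higher and 35.6% lower, with a median of -0.38, and medians were below 0 on chromosomes 13 (-0.23), 3 (-0.23) and 9 (-0.23). The medians did not rest on 1 library: over the 4 pairings of a TUBO with an early lesion library, log2(CPM + 0.5) differences had medians of 0.33 to 0.47 on chromosome 4 and of -0.46 to -0.29 on chromosome 14. Without early lesion replicate 2 the fitted medians were 0.37 and -0.41. Genes of a chromosome share their source and are not replicates, no test was made, and the copy number of the chromosomes was not measured. Ptprg and Slc4a7 lie on chromosome 14, and the keratins Krt8 and Krt18 on chromosome 15.

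**Figure D4:**
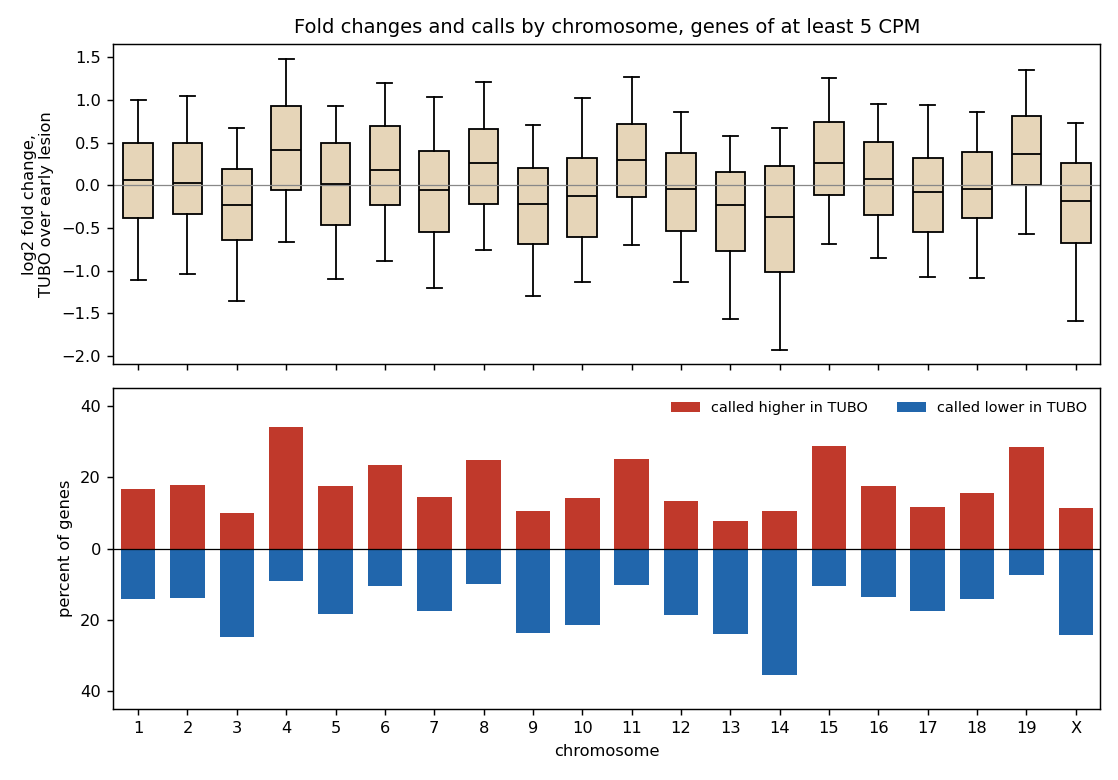
Log2 fold changes, TUBO over early lesion, of genes of at least 5 CPM by chromosome (top; boxes, quartiles with the median; whiskers, 10th to 90th percentile), and the percent of those genes called higher (up) or lower (down) in TUBO (bottom). Chromosomes 4 and 19 have the highest medians (0.41 and 0.36) and chromosome 14 the lowest (-0.38).

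Per length of exon, several of the same genes topped both groups. Levels here are means in CPM per kilobase of all annotated exons. Lcn2 had 3202 CPM per kilobase in TUBO and 4743 in early lesion, and Trf had 2992 in TUBO and 1568 in early lesion. The translation factor gene Eef1a1 had 4272 in TUBO and 2074 in early lesion, and Tpt1 had 4074 in TUBO and 1515 in early lesion. These are levels of single groups and were not tested per length. Csn3 had 792 in TUBO and 3047 in early lesion, and S100a11, a calcium-binding protein, had 1056 in TUBO and 3828 in early lesion; both were among the 12 highest of early lesion and not of TUBO. Spp1, which encodes the secreted phosphoprotein osteopontin, had 2168 in TUBO and 2409 in early lesion, and did not pass the test of its CPM (log2 fold change -0.15 ± 0.39, adjusted p = 0.802).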

How the data were processed

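The deposited table holds read counts per gene for 8 mouse RNA-seq libraries (4 groups of 2), made by the authors; the submitters' processing notes name TopHat, HTSeq 0.6.1 and mm10, with no strand setting or annotation given in the sources used here. The 5 closing rows for reads not assigned to a gene (35.2% and 39.7% in TUBO, 38.9% and 57.2% in early lesion) were left out. Library preparation used RNA of isolated cells or cultures and an Ovation kit, per the labels' protocols.

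Counts of 23478 genes were fitted with edgeR 4.0.16 (R 4.3.3): a mean per group over all 8 libraries, TMM factors, genes kept by filterByExpr at a minimum count of 10, robust quasi-likelihood fit with 4 residual degrees of freedom, contrast TUBO minus early lesion, and Benjamini-Hochberg adjusted p under 0.05. All adjusted p-values in the text come from edgeR unless DESeq2 1.42.0 is named. The script was tested on simulated data of 15613 genes. It called 34% of 100 genes changed 2-fold, 71% of 100 changed 4-fold, and 15 unchanged genes. A gene that did not pass the test can therefore still differ. Fold bounds use a floor of 3 counts per library; intervals and floors cover counting error only. Genes named outside the lists had a mean of at least 10 CPM in the higher group and the widest gap between the groups, 12 in each direction. They were also called in the same direction without early lesion replicate 2. In each list, called genes with the widest gap were named, beside a fixed panel. A few genes that these rules name are not reported here. Members and lists were chosen with earlier results of these data known, and the lists partly follow an earlier analysis of the series. Of 1021 listed genes 1015 are in the table, 7 of them under an older symbol. Positions and exon lengths come from GENCODE M21 (GRCm38) and promoters from RefSeq (GRCm38.p6). The alternatives tried were other scalings, filters and fits, DESeq2, a replicate block and fits without single libraries.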

Additional observations from a re-analysis of the deposited data

How the results depend on the processing

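No gene called higher or lower in TUBO was called the other way in any alternative; signs of folds that were not called were not counted. The counts of genes called higher and lower were 1864 and 2313 with RLE factors, 1850 and 2350 with upper quartile factors, 2216 and 3074 without a filter on low counts, 2022 and 2337 with at least 50 counts in 2 libraries, 2872 and 2967 in the fit of the 4 compared libraries alone, and 2213 and 3236 with DESeq2. Tested against a log2 fold change of 1 (glmTreat), 410 and 762 were called, by construction of that test. Leaving out 1 library at a time gave 1036 to 1824 higher and 1278 to 1972 lower genes. The highest counts belong to the fit without replicate 1 of the bone marrow cells that had no interferon-gamma. Without both that library and early lesion replicate 2 the counts were 793 and 1151; the cause was not tested beyond the smaller number of samples. A floor of 5 CPM, chosen after seeing the data, gave 2071 and 2253.

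With the replicate number as a block, 1907 genes were called higher and 2106 lower. Samples with the same number did not deviate together (correlation of deviations 0.0957), so the numbers were not taken as a pairing.

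Precision is limited by 2 libraries per group: the common biological coefficient of variation was 0.416, and TUBO is 1 line. Among the libraries compared, early lesion replicate 2 has the fewest counts on genes and the most reads outside them. Replicate 1 of the bone marrow cells without interferon-gamma, which enters the estimate of spread, has fewer counts on genes still, at 15432210. It had 49.2% of its counted reads outside annotated genes, and 47.6% of the olfactory and vomeronasal receptor genes had a count in it. At the depths of the compared libraries, 3 counts correspond to 0.134 CPM in early lesion replicate 2 and to 0.0953 to 0.114 CPM in the other 3. Differences between genes under about that level were therefore not detectable.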

Other observations

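Ribosomal protein genes, which are on none of the lists and were chosen after their values were seen, were higher in TUBO. Of 77 tested, 71 were called higher and none lower, with a median log2 fold change of 1.43, against 11.4% called higher and a median of -0.27 over all genes tested. Without TUBO replicate 1, TUBO replicate 2, early lesion replicate 1 and early lesion replicate 2 in turn, 66, 53, 65 and 52 were called higher. Their summed level was 91358 and 112566 CPM in TUBO, against 39217 and 35485 CPM in early lesion. Many of these genes have near-identical processed copies in the genome, among which a counter can lose reads, so single levels are uncertain. Genes for the nucleolar and MYC-related steps of ribosome production, in contrast, were called higher in 3 and lower in 1 of 30 cases.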
